A study of Mus musculus with 8 samples.

Results

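The collagen genes other than collagen XVII were followed in Dll1+ and Dll1- mammary tumor cells of the mouse. Members were taken by symbol, as protein-coding genes named Col, a number, a, and a number, with Col17a1 left out. The rule gave 43 of the 21817 protein-coding genes in a table of 53697 genes. RNA came from spontaneous tumors of 4 MMTV-PyMT mice, in which a mouse mammary tumor virus promoter drives the polyoma middle T oncogene in mammary epithelium. The PyMT-Dll1GFP reporter of mice 1 and 2 is a knock-in, while the PyMT-Dll1mCh reporter of mice 3 and 4 is carried on a BAC. Each tumor was digested with collagenase and hyaluronidase, cells positive for CD45, CD31 or TER119 were sorted out, and the remaining Lin- cells were split into reporter-positive (Dll1+) and reporter-negative (Dll1-) cells. The 8 libraries thus formed 4 groups of 2, Dll1+ and Dll1- cells of GFP mice and Dll1+ and Dll1- cells of mCh mice. All 4 groups carried the PyMT oncogene on the C57BL/6 background, and the age of the mice is not given in the sources used here. The sort used no antibody against fibroblasts or pericytes. The reporter line, the mice and any batch that went with them cannot be told apart.

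Collagens are triple-helical proteins of the extracellular matrix. Fibrillar collagens such as collagens I, III and V form the fibers of connective tissue and are made mainly by fibroblasts, whereas collagen IV builds the sheet of the basement membrane and comes from epithelium, endothelium and mesenchyme. FACIT collagens sit on the surface of fibrils, collagen VI forms beaded filaments, collagen VII anchors the epidermal basement membrane to the stroma below it, and the multiplexins XV and XVIII lie in basement membrane zones. In mammary tumors fibrillar collagen surrounds the epithelial nests and is a well known component of the stroma.

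The libraries held 27301396 to 123907626 estimated counts. The epithelial marker Epcam stood between 898.6 and 1239.5 TMM-normalized CPM (counts scaled to the library total) in the 8 libraries, and Ptprc, the gene of CD45, between 2.88 and 12.7. Of the 43 collagen genes, 42 had at least 3 counts in some library, 38 had them in every library, and Col19a1 had no count. At 3 counts the detection floor lay between 0.024 and 0.105 CPM. The mean over the 8 libraries exceeded 100 CPM for 20 collagen genes. The filter on low counts left 40 of the 43 for the tests within mice, without Col6a4, Col19a1 and Col22a1. Col6a4 lay between 0.0224 and 0.561 CPM and Col22a1 between 0.054 and 0.264 CPM.

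The collagen genes together took a steady share of the GFP libraries and a variable share of the mCh libraries. In mouse 1 they held 0.377% of all counts in Dll1- and 0.402% in Dll1+ cells, and in mouse 2 0.408% and 0.383%. In mouse 3 the share was 1.36% in Dll1- and 0.760% in Dll1+ cells, and in mouse 4 it was 3.2% and 0.782%. All 4 mCh libraries thus lay above all 4 GFP libraries, and within the mCh mice the Dll1- library held more collagen than the Dll1+ library. In bulk RNA, fewer cells of a type and less RNA per cell cannot be told apart. The 95% Wilson intervals were at most 0.0062 percentage points to either side and cover counting error only. The 11 fibrillar genes made up most of the variable portion, with 0.143% to 0.163% of the counts in GFP libraries, 0.806% and 0.340% in mouse 3 and 2.18% and 0.359% in mouse 4.

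Per kilobase of exon, which allows levels of different genes to be compared, the leading collagens were not the same in both lines. In Dll1- cells of GFP mice Col9a1, a chain of the FACIT collagen IX, stood first with a mean of 68.8 CPM per kb, followed by Col9a2 (63.5), Col1a1 (62.8) and Col16a1 (56.2). The first 3 were close, and 2 mice do not settle their order. In Dll1- cells of mCh mice Col1a1 came first with 698.9 CPM per kb, followed by Col3a1 (548.0), Col1a2 (280.0) and Col6a1 (209.5). Such orders depend on the length used. Means over the 8 libraries were 250.3 for Col1a1, 178.2 for Col3a1 and 99.3 for Col1a2 with the union of exons. With the longest transcript they were 277.0, 314.4 and 230.8, so that Col3a1 came first. Some pairs kept their ratio in every library and others did not. Col1a1 and Col1a2, the partner chains of collagen I, had a ratio of per-kilobase levels of 2.47 to 2.62 in the 8 libraries, and of 1.18 to 1.25 where the longest transcript was used as the length. Col4a1 over Col4a2 ranged from 1.39 to 1.6. By contrast Col3a1 over Col11a1, both fibrillar, ranged from 0.984 to 43.0, and Col4a1 over Col4a5, both chains of collagen IV, from 0.329 to 11.1.

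Within the mCh mice, fibrillar collagens of connective tissue were lower in Dll1+ than in Dll1- cells. Col3a1, the chain of collagen III, stood at 2473 CPM in Dll1- and 813.4 in Dll1+ cells of mouse 3, and at 8286 and 1009 in mouse 4. In mouse 1 it stood at 316.3 and 302.3 CPM and in mouse 2 at 424.4 and 369.9. The Dll1- library of mouse 4 was the highest of the 8, the GFP libraries lay below all mCh libraries, and only the mCh mice showed a wide gap between their 2 libraries. On the log2 scale the change of Col3a1 (Dll1+ over Dll1-) was -2.32 (SE 0.38, adjusted p = 0.0355) in mCh mice, a 5.0-fold lower level, and -0.13 (SE 0.36, adjusted p = 0.868) in GFP mice. Col1a1 stood at 2592 and 1158 CPM in mouse 3 and 6581 and 1215 in mouse 4, against 406.5 and 361.8 in mouse 1 and 417.4 and 409.5 in mouse 2. It fell by 1.80 on the log2 scale in mCh mice (SE 0.33, adjusted p = 0.0389). Col1a2 fell by 1.84 (SE 0.36, adjusted p = 0.0481), a call that was lost with RLE size factors, among other settings. The mCh call held in 4 of the 10 alternatives tried for Col1a2, and in 6 of the 10 for Col1a1 and for Col3a1. Col5a3, a minor chain of collagen V, dropped from 138.8 to 33.1 CPM in mouse 3 and from 370.3 to 43.2 in mouse 4, and fell by 2.58 on the log2 scale (SE 0.28, adjusted p = 0.0205). The other collagen V chains had similar folds that did not pass, with -1.81 for Col5a1 (adjusted p = 0.0717) and -1.74 for Col5a2 (adjusted p = 0.0834). Of the 11 fibrillar genes 4 fell, 1 rose and 6 did not pass in mCh mice, where their median log2 fold change was -1.74 against 0.02 over all genes tested.

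**Figure D1:**
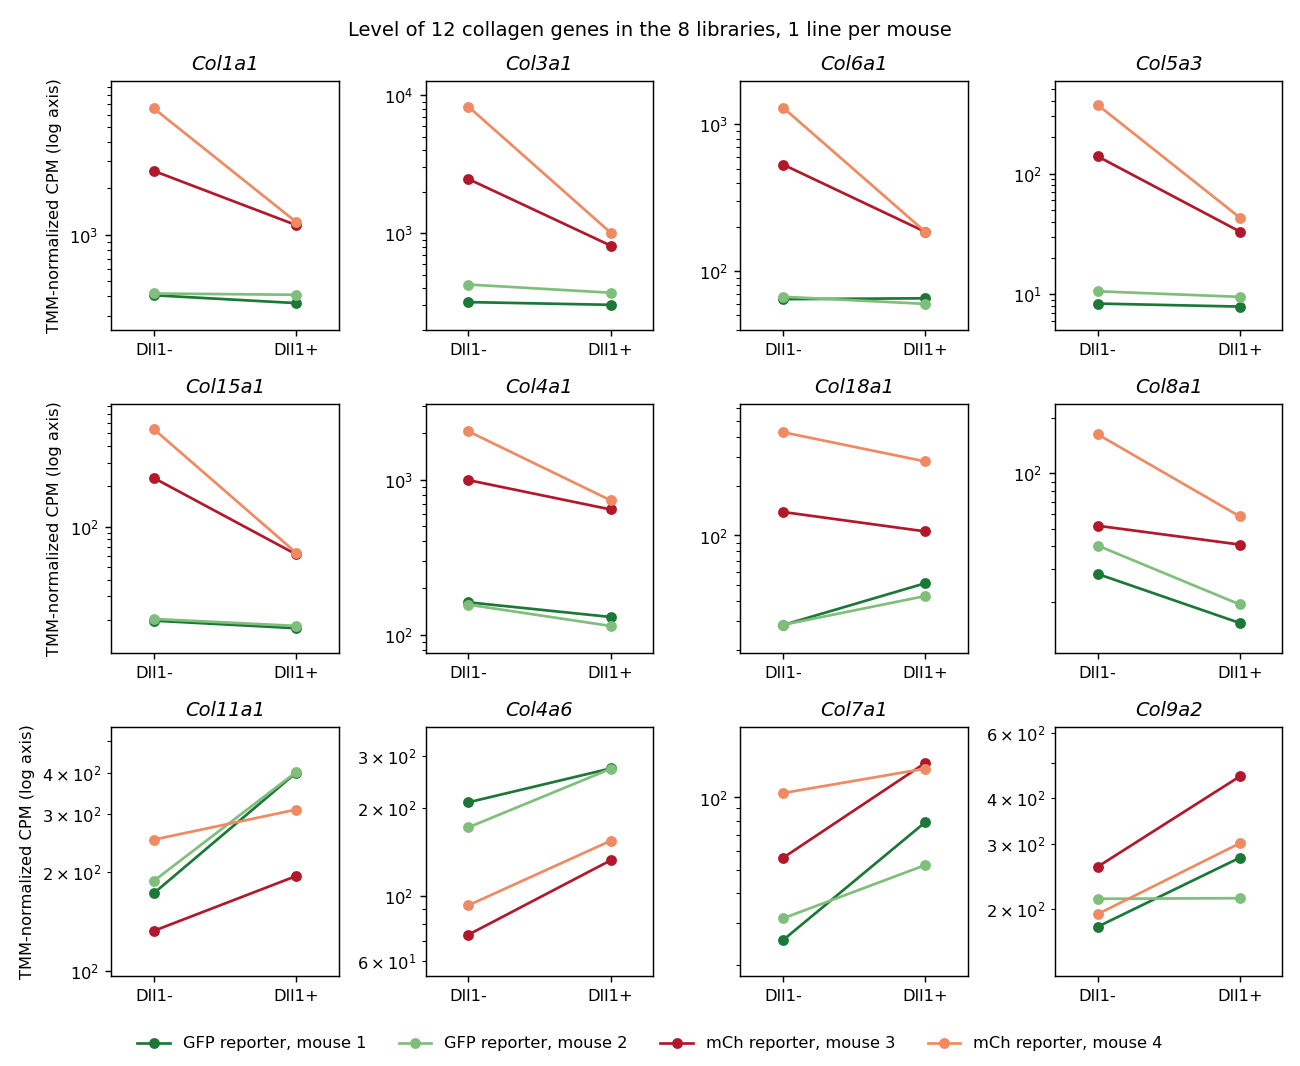
TMM-normalized CPM on log axes of 12 collagen genes in Dll1- and Dll1+ cells, with 1 line joining the 2 libraries of each mouse (green, GFP mice 1 and 2; red and orange, mCh mice 3 and 4). Col1a1, Col3a1, Col6a1, Col5a3 and Col15a1 slope steeply down in the mCh mice and lie nearly flat in the GFP mice, Col4a1 and Col8a1 slope down in all 4 mice, Col18a1 up in GFP and down in mCh mice, and Col11a1, Col4a6 and Col7a1 up in all 4.

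Over all 40 collagen genes tested, 12 fell and 5 rose in Dll1+ cells of mCh mice. Of all 18322 genes tested, 6.25% fell and 5.51% rose in the same comparison. The median collagen gene had a log2 fold change of -0.81. The difference was wider in mouse 4 than in mouse 3, since 22 of the 40 were at least 1 log2 unit lower in Dll1+ cells of mouse 4 and 13 in mouse 3, against 1 in mouse 2 and 0 in mouse 1. With a mouse left out, 12 were called without mouse 1, 11 without mouse 2, 22 without mouse 3 and 14 without mouse 4, where a reporter left with 1 mouse is assumed to vary like the other. However, with the mCh mice fitted alone 0 of the 41 collagen genes then tested passed, and 0 of all genes did. That fit leaves 1 residual degree of freedom. Without the mouse as a block 4 fell and 0 rose, and 212 of all genes were called. DESeq2's Wald test called 20 lower and 5 higher, and 2473 of all genes.

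Collagen VI followed the fibrillar genes. Col6a1 stood at 532.6 and 185.3 CPM in Dll1- and Dll1+ cells of mouse 3 and at 1302 and 185.6 in mouse 4, whereas the 4 GFP libraries lay between 59.8 and 66.9. The fold change on the log2 scale was -2.17 in mCh mice (SE 0.36, adjusted p = 0.0425) and -0.07 in GFP mice (SE 0.34). Col6a2 fell by 2.29 on the log2 scale (adjusted p = 0.0418) and Col6a3 by 2.20 (adjusted p = 0.0311) in mCh mice. These are the 3 chains of the common collagen VI heterotrimer. The rarer Col6a5, at 0.173 to 7.6 CPM, and Col6a6, at 1.16 to 16.7 CPM, did not pass in mCh mice.

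Both multiplexins fell in mCh mice, by very different amounts. Col15a1, a collagen of basement membrane zones around vessels and muscle, stood at 231.2 and 62.0 CPM in mouse 3 and at 537.3 and 63.8 in mouse 4, with the GFP libraries between 17.3 and 20.3. It fell by 2.49 on the log2 scale in mCh mice (SE 0.33, adjusted p = 0.0292) and had -0.18 (SE 0.33, adjusted p = 0.799) in GFP mice. Col18a1, whose C-terminal fragment is endostatin, went down in the mCh mice, from 139.2 to 105.9 CPM in mouse 3 and from 428.1 to 283.7 in mouse 4, and up in the GFP mice, from 28.3 to 51.0 in mouse 1 and from 28.4 to 42.6 in mouse 2. Both effects passed, at -0.49 (SE 0.10, adjusted p = 0.0286) in mCh mice and 0.72 (SE 0.10, adjusted p = 0.0119) in GFP mice. Their difference of -1.21 (SE 0.14) had an adjusted p of 0.0538 over all genes and so did not pass. The mCh call was lost without mouse 1, 2 or 4 (adjusted p = 0.0525, 0.0553 and 0.127) and the GFP call without mouse 1 or 2 (0.150 and 0.105).

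The low-abundance Col28a1 and Col13a1 also fell in mCh mice. Col28a1, a collagen of peripheral nerve, fell from 3.77 to 0.855 CPM in mouse 3 and from 17.2 to 1.4 in mouse 4, a 7.44-fold lower level (adjusted p = 0.0146). Col13a1, a transmembrane collagen known from the neuromuscular junction, fell from 6.46 to 2.2 CPM and from 14.8 to 2.37, 4.26-fold (adjusted p = 0.0148). In the GFP libraries Col13a1 stood at 0.307 to 0.384 CPM, or 9 to 17 counts, and Col28a1 at 0.349 to 0.626 CPM, so that small changes there were not detectable at this depth.

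In mCh mice, chains of collagen IV moved in opposite directions. Col4a1 and Col4a2, which form the common basement membrane trimer, are transcribed head to head on chromosome 8, and their annotated exons overlap by 22 bases. Col4a1 stood at 995.2 and 643.9 CPM in Dll1- and Dll1+ cells of mouse 3, 2054 and 737.7 in mouse 4, 162.1 and 130.4 in mouse 1 and 156.6 and 114.1 in mouse 2. It was lower in Dll1+ cells in 4 of 4 mice. The mCh effect of -1.05 (SE 0.21, adjusted p = 0.0387) passed while the GFP effect of -0.39 (SE 0.21, adjusted p = 0.314) did not. The mCh call of Col4a1 held in 6 of the 10 alternatives tried. Col4a2 had -1.11 (SE 0.24, adjusted p = 0.0543) in mCh mice.

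Col4a5 and Col4a6, the partner chains of an epithelial and smooth muscle type of collagen IV trimer, lie head to head on chromosome X with 1308 bases between their annotated starts. Col4a6 was the higher in the Dll1+ library of each mouse, at 208.9 and 272.8 CPM in mouse 1, 171.5 and 271.9 in mouse 2, 73.6 and 132.2 in mouse 3 and 92.8 and 154.2 in mouse 4. Each GFP library lay above each mCh library, and within a mouse the rise was similar. Col4a6 rose by 0.53 on the log2 scale in GFP mice (SE 0.10, adjusted p = 0.0251) and by 0.79 in mCh mice (SE 0.10, adjusted p = 0.0109), which leaves a gap of 0.26 between them (SE 0.14, adjusted p = 0.48). All 4 mice together gave 0.66 (SE 0.09, adjusted p = 0.0109). This call held in 8 of the 9 alternatives tried and was just lost without mouse 3 (adjusted p = 0.0515). Col4a5 rose in mCh mice, with 0.58 (SE 0.09, adjusted p = 0.0157), and had 0.05 (SE 0.09, adjusted p = 0.795) in GFP mice. The gap of 0.54 (SE 0.12) did not pass (adjusted p = 0.163). The mCh call of Col4a5 was lost without mouse 3 or mouse 4. Col4a3 and Col4a4, the third head-to-head pair, with 71 bases between their starts, were low, at 0.0682 to 1.37 and 1.18 to 2.68 CPM, and neither passed in any comparison.

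**Figure D2:**
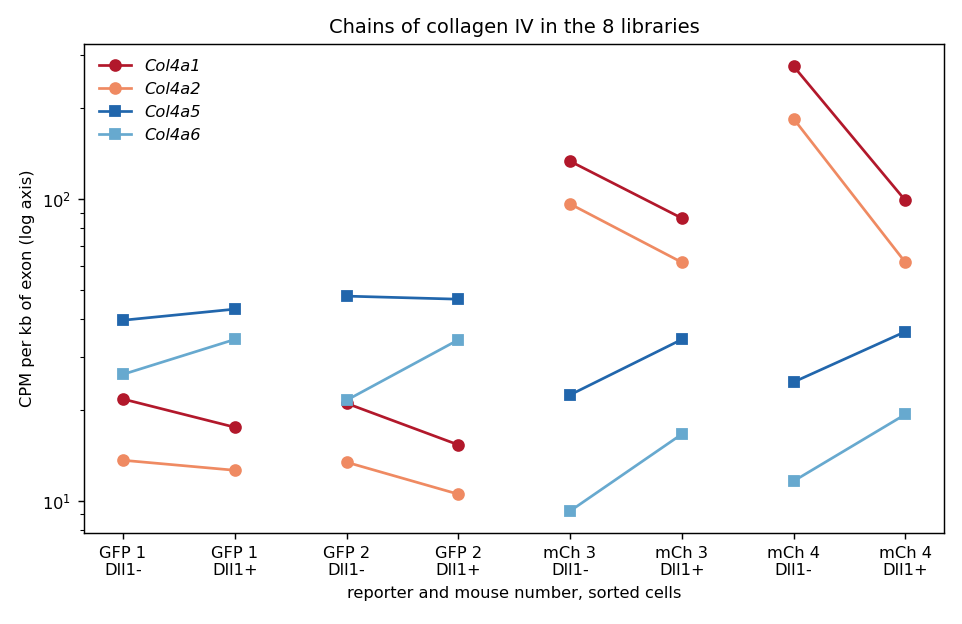
Levels per kilobase of exon (log axis) of 4 chains of collagen IV in the 8 libraries, with lines joining the Dll1- and Dll1+ library of a mouse. Col4a5 and Col4a6 lie above Col4a1 and Col4a2 in the GFP mice and below them in the mCh mice, and Col4a6 goes up from Dll1- to Dll1+ cells in every mouse.

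Col11a1 showed the clearest rise among the collagens of GFP mice. It encodes a chain of collagen XI, which sits inside heterotypic fibrils and limits their diameter. Col11a1 stood at 171.8 and 399.1 CPM in Dll1- and Dll1+ cells of mouse 1, 187.3 and 400.9 in mouse 2, 132.0 and 193.7 in mouse 3 and 250.1 and 308.6 in mouse 4. The 2 lines overlapped in Dll1- cells, and both GFP Dll1+ libraries lay above the rest. In GFP mice Col11a1 rose 2.23-fold, or by 1.16 on the log2 scale (SE 0.10, adjusted p = 0.00371), and in mCh mice by 0.43 (SE 0.10, adjusted p = 0.0418). The difference of -0.73 (SE 0.14) did not pass (adjusted p = 0.122). Over the 4 mice it was 0.79 (SE 0.17, adjusted p = 0.0385), and that call was lost without mouse 1, 2 or 3 (adjusted p = 0.114, 0.112 and 0.118). The GFP call was lost without mouse 1 or 2 (adjusted p = 0.0724 and 0.0818) and the mCh call with any of the 4 mice left out (adjusted p of 0.069 to 0.253).

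Col3a1 was 1 of the 4 fibrillar genes that fell in mCh mice. Sequences before the annotated starts of Col3a1 and of 3 genes that rose in Dll1+ cells are given. They come from RefSeq (GRCm38.p6) and read 5′ to 3′ on the strand of the gene. They run over chr3:114030290-114030539 on the plus strand for Col11a1, chrX:141474077-141474326 on the minus strand for Col4a6, chrX:141475169-141475384 on the plus strand for Col4a5 and chr1:45311288-45311537 on the plus strand for Col3a1. Capitals mark the GC box, the CCAAT box and the TATA motif on either strand.
Col11a1: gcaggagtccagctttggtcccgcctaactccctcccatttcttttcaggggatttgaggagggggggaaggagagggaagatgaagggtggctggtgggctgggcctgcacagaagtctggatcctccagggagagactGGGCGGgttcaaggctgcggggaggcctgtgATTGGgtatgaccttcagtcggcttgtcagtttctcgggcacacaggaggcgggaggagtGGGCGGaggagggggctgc
Col4a6: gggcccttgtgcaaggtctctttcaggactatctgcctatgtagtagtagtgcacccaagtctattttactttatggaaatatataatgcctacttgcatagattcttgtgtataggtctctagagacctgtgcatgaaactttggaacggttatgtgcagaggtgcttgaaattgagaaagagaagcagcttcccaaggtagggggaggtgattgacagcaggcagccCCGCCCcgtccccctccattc
Col4a5: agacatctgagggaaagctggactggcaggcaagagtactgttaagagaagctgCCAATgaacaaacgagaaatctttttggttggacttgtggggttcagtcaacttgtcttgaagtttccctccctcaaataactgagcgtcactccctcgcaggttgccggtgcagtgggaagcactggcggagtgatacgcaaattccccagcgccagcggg
Col3a1: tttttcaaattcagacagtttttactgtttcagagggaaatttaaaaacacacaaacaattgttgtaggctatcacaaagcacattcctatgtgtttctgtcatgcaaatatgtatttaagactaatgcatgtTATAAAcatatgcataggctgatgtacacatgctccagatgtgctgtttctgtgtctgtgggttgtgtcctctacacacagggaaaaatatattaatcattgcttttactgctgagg
Col11a1 held 2 GC boxes and 1 CCAAT box in its printed stretch, Col4a6 held 1 GC box, Col4a5 1 CCAAT box, and Col3a1 1 TATA motif. Over windows of 250 bases before to 50 after the start, RefSeq matched 34 of the 43 collagen genes. Each of these gave 1 window, whereas the background took every window and was not reduced to 1 per gene. The GC box, GGGCGG on either strand, was found in 22 of the 34 (64.7%), against 35.7% of all 32851 windows. The CCAAT box, CCAAT on either strand, was found in 11 (32.4%, against 37.4%). The TATA motif, TATAAA on either strand, was found in 4 (11.8%, against 13.6%). No motif contains another, and a match is a description of the letters only.

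Collagen VII and chains of collagen IX were also higher in Dll1+ cells. Col7a1, the collagen of anchoring fibrils, stood at 25.4 and 78.8 CPM in mouse 1, 31.3 and 52.2 in mouse 2, 56.0 and 139.2 in mouse 3 and 104.3 and 131.9 in mouse 4. It was higher in 4 of 4 mice, by 0.34 to 1.61 log2 units. Col7a1 passed over the 4 mice with 1.0 (SE 0.23, adjusted p = 0.0499) and in neither reporter alone (1.18 in GFP mice, adjusted p = 0.155, and 0.83 in mCh mice, adjusted p = 0.224). Being at the threshold, its call was lost under RLE size factors (adjusted p = 0.0519) and without mouse 1, 2 or 3. Col9a3, a chain of the FACIT collagen IX, rose by 0.36 on the log2 scale over the 4 mice (SE 0.08, adjusted p = 0.0388) and 0.49 in mCh mice (SE 0.08, adjusted p = 0.0215). It shares 234 exon bases, 6.07% of its exon length, with Tcfl5 on the opposite strand, and leaving out any mouse ended both calls. Its partner chain Col9a2 rose in mCh mice, from 260.9 to 458.6 CPM in mouse 3 and from 194.1 to 302.1 in mouse 4 (0.73 on the log2 scale, SE 0.16, adjusted p = 0.0416). The mCh call of Col9a2 held in 6 of the 10 alternatives tried. In GFP mice Col9a2 stood at 179.4 and 276.0 CPM in mouse 1 and at 213.6 and 214.4 in mouse 2. The third chain, Col9a1, went the other way, with -0.32 over the 4 mice (SE 0.11), which did not pass (adjusted p = 0.0947).

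Col8a1 fell over the 4 mice. This network-forming collagen of vessel walls stood at 28.3 and 15.3 CPM in mouse 1, 40.4 and 19.3 in mouse 2, 51.8 and 40.9 in mouse 3 and 163.0 and 58.2 in mouse 4. It fell by 0.95 on the log2 scale (SE 0.19, adjusted p = 0.0342), and the GFP and mCh effects were close, at -0.98 (SE 0.32) and -0.91 (SE 0.31), with neither past the threshold alone. The call was lost without mouse 1 or mouse 2 (adjusted p = 0.119 each). In the model of Dll1 status and mouse, 4 of the 40 collagen genes rose (Col4a6, Col7a1, Col9a3 and Col11a1) and 1 fell (Col8a1), against 6.98% higher and 7.04% lower of all genes tested. The count ranged from 1 to 6 with a mouse left out, with 1 gene called without mouse 1, 1 without mouse 3 and 3 without mouse 2, of which 1 was among the 5. DESeq2 called 6 higher and 4 lower, and 4362 of all genes. The large mCh effects of Col1a1 (-0.93 over the 4 mice, adjusted p = 0.228) and Col3a1 (-1.20, adjusted p = 0.225) did not pass in that model.

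The remaining collagen genes passed in no comparison within mice. Col12a1, a FACIT collagen on collagen I fibrils, stood at 126.5 and 142.6 CPM in mouse 1, 91.5 and 97.1 in mouse 2, 176.5 and 141.8 in mouse 3 and 340.1 and 163.4 in mouse 4, so that only the mCh mice were lower in Dll1+ cells (log2 -0.69, SE 0.18, adjusted p = 0.0765). Col14a1, a related FACIT collagen, had -1.64 in mCh mice (SE 0.45, adjusted p = 0.109) and -0.21 in GFP mice. Col16a1, which ranked among the highest collagens per kilobase, ranged from 294.1 to 672.0 CPM and went up in 3 of 4 mice (0.18 over the 4 mice, adjusted p = 0.529). Col27a1, a fibrillar collagen of cartilage, stood at 10.2 to 25.1 CPM, with 0.54 in GFP and -0.71 in mCh mice. Col25a1 was higher in Dll1+ cells of 3 mice and nearly level in mouse 1, at 65.8 and 64.4 CPM (0.60 over the 4 mice, adjusted p = 0.0972). The other fibrillar members Col2a1, Col11a2 and Col24a1 had log2 fold changes between -0.89 and 0.01 over the 4 mice, with Col24a1 lower in 4 of 4 mice (adjusted p = 0.0577). Col8a2, Col10a1, Col20a1, Col23a1 and Col26a1 lay between -1.10 and 0.39.

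**Figure D3:**
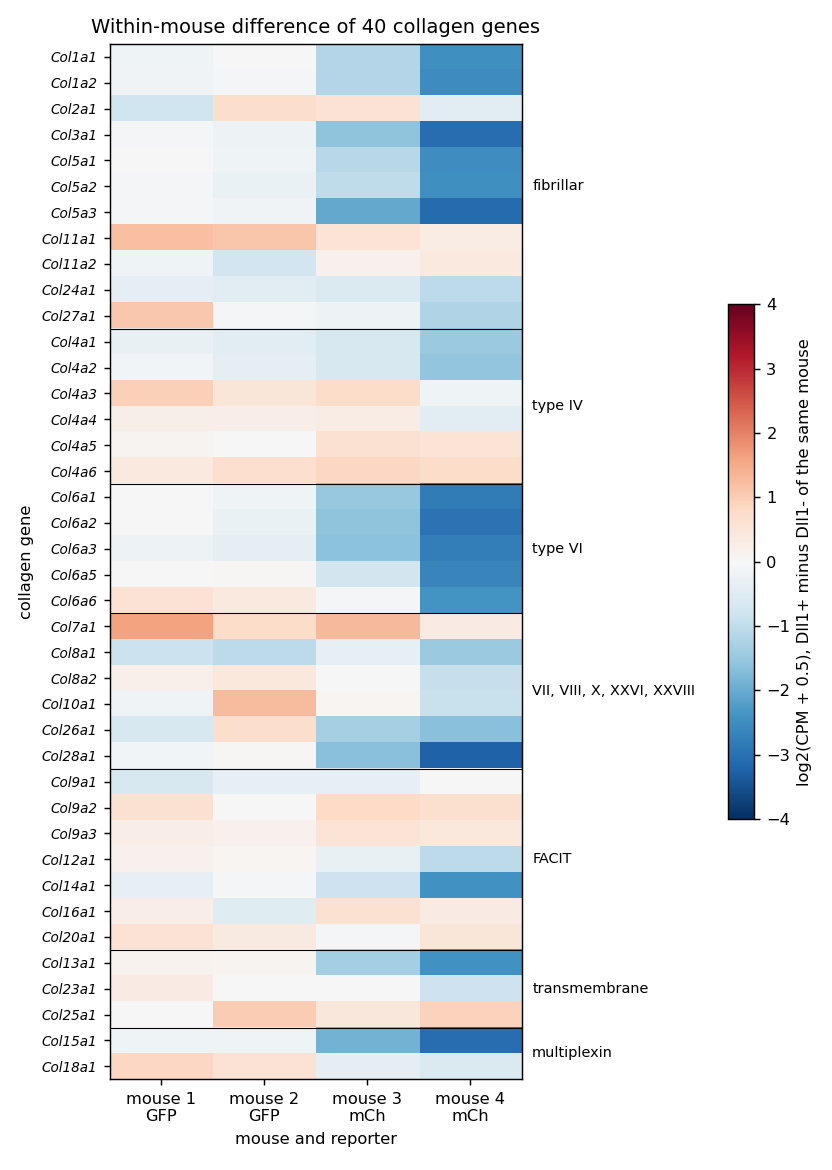
Difference in log2(CPM + 0.5) between the Dll1+ and Dll1- library of each mouse for the 40 collagen genes tested, grouped by kind of collagen (red, higher in Dll1+; blue, lower). Blue fills the rows of collagens I, III, V, XV and XXVIII and of Col6a1, Col6a2 and Col6a3 in mice 3 and 4, with Col3a1 at -1.6 and -3.04. Col6a5 and Col6a6 are paler in mouse 3, at -0.75 and -0.09. The rows of Col4a6, Col7a1, Col9a3 and Col11a1 are red in all 4 columns.

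In GFP mice 3 of the 40 collagen genes rose (Col11a1, Col18a1 and Col4a6) and 0 fell, against 4.29% higher and 4.84% lower of all genes tested. At an unadjusted p under 0.05 there were 6 higher and 3 lower, against 26.7% of all genes in either direction. DESeq2 called 3 higher and 2 lower, and 2053 of all genes. With either GFP mouse left out, the GFP effect rests on 1 mouse, and few genes of any kind passed. With the GFP mice fitted alone 3 rose and 3 fell, and 2337 of all genes were called. The median log2 fold change of the 40 was 0.00, and 20 were positive and 20 negative. The fibrillar genes that fell in mCh mice had GFP values between -0.13 and -0.10, with standard errors of 0.31 to 0.36. The difference between the mCh and the GFP effect was -1.70 (SE 0.45, adjusted p = 0.260) for Col1a1 and -2.19 (SE 0.52, adjusted p = 0.240) for Col3a1. The test of the difference between the reporters, mCh effect minus GFP effect, called 0 of the 40 collagen genes, against 0.071% of all genes. At an unadjusted p under 0.05 it had 16 lower and 2 higher, against 13.2% of all genes in either direction. DESeq2 called 11 lower and 1 higher, and 540 of all genes. Leaving out mouse 3 gave 21 and leaving out mouse 4 gave 5, all lower in the mCh effect. The count for the difference thus ranged from 0 to 21 between settings.

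**Figure D4:**
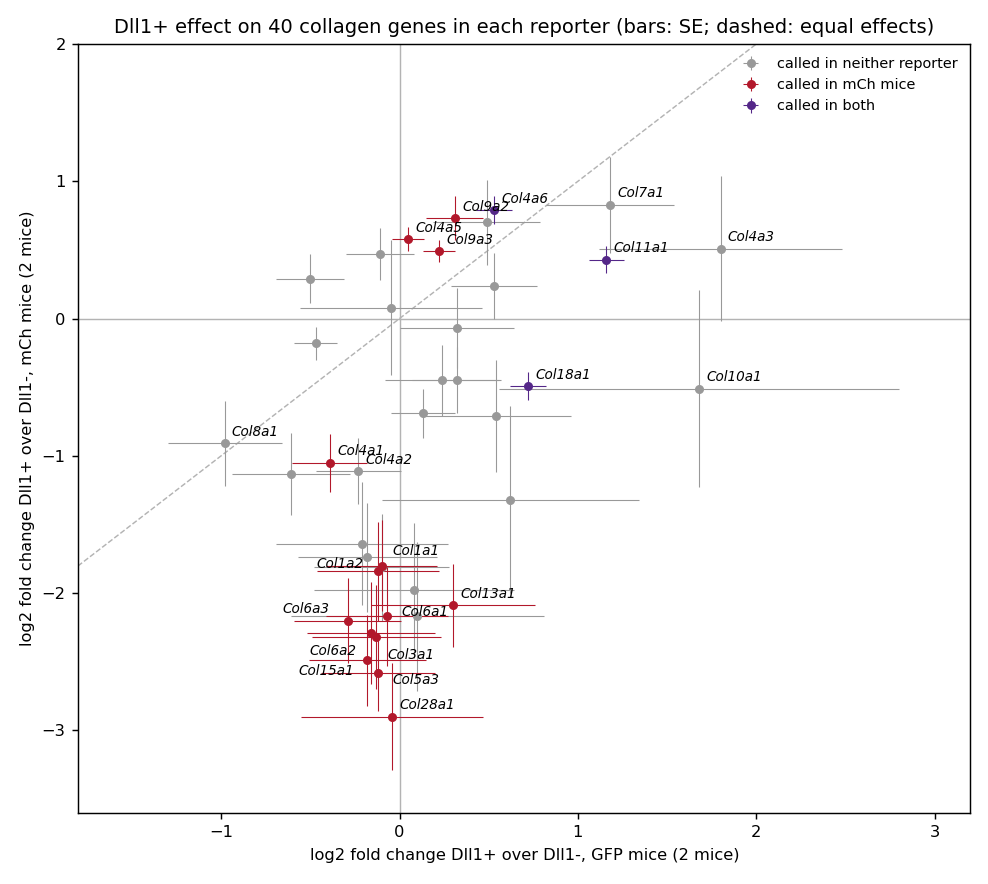
Log2 fold change (Dll1+ over Dll1-) of 40 collagen genes in GFP mice against mCh mice, 2 mice each, with standard errors as bars and equal effects on the dashed line. A column of genes near 0 on the GFP axis runs down to -2.9 for Col28a1 on the mCh axis, Col4a6 and Col11a1 (purple) are positive on both axes, and Col18a1 (purple) is positive for GFP and negative for mCh.

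Between the lines, most collagens were higher in mCh than in GFP tumors. In Dll1- cells 25 of the 41 collagen genes tested were higher in the mCh line and 3 lower, against 19.0% higher and 15.9% lower of the 19843 genes tested. Col5a3 was 27.2-fold higher (adjusted p = 0.00181), Col15a1 19.5-fold (adjusted p = 0.00143), Col6a2 16.8-fold (adjusted p = 0.00172), Col3a1 14.7-fold (adjusted p = 0.0038) and Col1a1 11.3-fold (adjusted p = 0.00238). The largest ratio, 34.4-fold, was that of Col13a1 (adjusted p = 0.00143), which rests on 9 counts in each GFP Dll1- library. Col10a1, the collagen of hypertrophic cartilage, was also called higher, on 7 and 1 counts in the GFP libraries. Col28a1 was 21.1-fold higher, Col14a1 12.5-fold, the low-abundance Col6a5 12.1-fold, Col18a1 10.1-fold, Col23a1, a transmembrane collagen, 8.73-fold and Col6a6 7.19-fold. Smaller folds that passed were those of Col26a1 (4.02), Col8a1 (3.16), Col8a2 (3.12), Col7a1 (2.86) and Col12a1 (2.41). The 3 lower genes were Col4a6 (2.25-fold), Col4a5 (1.81-fold) and Col25a1 (3.37-fold), a transmembrane collagen known from amyloid plaques. In Dll1+ cells 15 were higher and 1, Col4a6, was lower, against 13.0% higher and 14.5% lower of all genes. Here Col4a1 was 5.58-fold higher (adjusted p = 0.00495), Col4a2 5.27-fold (adjusted p = 0.00425), Col5a3 4.31-fold (adjusted p = 0.0165) and Col1a1 3.04-fold (adjusted p = 0.0244). Col9a1 and Col16a1, FACIT collagens, were 1.52-fold and 1.76-fold higher in the mCh line in Dll1+ cells and did not pass in Dll1- cells. These comparisons set 2 mice against 2 without a block, share their libraries with the tests within mice, and called 0 collagen genes, and 0 of all genes, when mouse 1 or mouse 2 was left out. They also hold whatever else differed between the lines.

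Markers of other cell types moved with the fibrillar collagens. All 20 fibroblast markers had negative log2 fold changes in mCh mice, with a median of -1.91, and 5 of them fell, among them Fn1 (fibronectin), Thy1 and Fap. Their summed level was 825.8 and 839.2 CPM in Dll1- and Dll1+ cells of mouse 1, 860.7 and 779.0 in mouse 2, 5108 and 3093 in mouse 3 and 13370 and 2717 in mouse 4. None of the 20 was at 0 in any library, and Dcn, which encodes decorin, ranged from 23.1 CPM in a GFP library to 956.7 in Dll1- cells of mouse 4. Of the 11 pericyte and smooth muscle markers, with a summed level of 237.9 to 1004.2 CPM, 8 fell in mCh mice, where Rgs5 went from 249.8 to 34.5 CPM in mouse 3 and from 294.1 to 35.6 in mouse 4. Of the 12 endothelial markers 5 fell, and of the 11 immune markers tested 10 fell, although CD31 and CD45 had been used to remove these cells. Their summed levels ran from 68.2 to 523.8 CPM and from 79.4 to 525.9 CPM, both lowest in GFP and highest in mCh Dll1- libraries. Over all genes tested, 6.25% fell in mCh mice, and 0 passed with the mCh mice fitted alone. In GFP mice the median log2 fold changes of the fibroblast, pericyte, endothelial and immune lists were -0.12, -0.07, 0.12 and 0.05. The 10 luminal epithelial markers had a summed level of 5987 to 9531 CPM. In mCh mice 1 of them, Grhl2, rose, against 5.51% of all genes. In GFP mice 1 of the 10 fell, against 4.84% of all genes. There Krt19 went from 437.9 to 257.0 CPM in mouse 1 and from 348.5 to 218.4 in mouse 2. The part of non-epithelial RNA in the collagen differences was not tested.

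**Figure D5:**
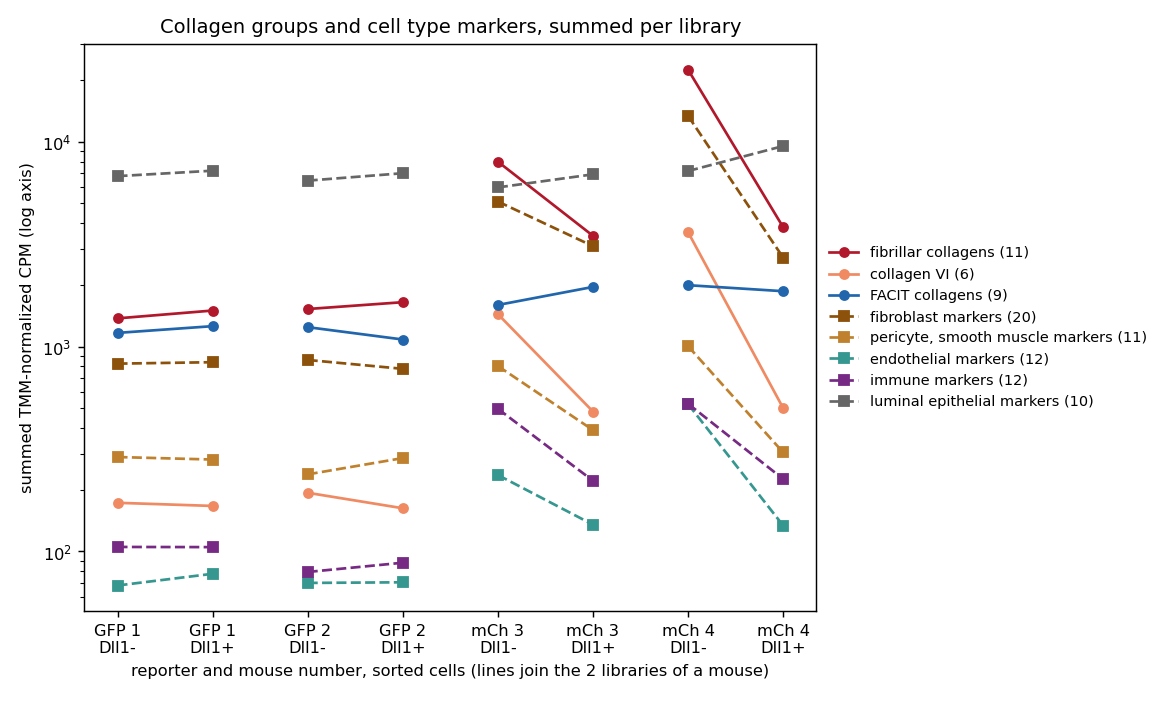
Summed TMM-normalized CPM (log axis) of 3 collagen groups and 5 lists of cell type markers in the 8 libraries, with lines joining the Dll1- and Dll1+ library of a mouse and the number of genes in parentheses. Fibrillar collagens, collagen VI and the fibroblast, pericyte, endothelial and immune markers are higher in mCh libraries and drop from Dll1- to Dll1+ cells there, while the FACIT collagens lie between 1083 and 1995 CPM and the luminal markers go up slightly from Dll1- to Dll1+ cells.

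The 4 collagens that rose over the 4 mice (Col4a6, Col7a1, Col9a3 and Col11a1) were higher in Dll1+ cells of each mouse. The test that picked them included the mCh mice, where the fibroblast markers were lower. The rise of the 4 collagens there is thus no separate result. Col18a1, which rose in GFP mice, fell in mCh mice. In Dll1- cells Col7a1 and Col18a1 were higher in the mCh line, by 2.86-fold and 10.1-fold. The 8 basal and myoepithelial markers had positive values in 8 of 8 over the 4 mice. Of these 4 were called higher, against 6.98% of all genes, among them the keratin Krt5, by 2.77 on the log2 scale (SE 0.25, adjusted p = 0.0073). By mouse, 7, 7, 8 and 6 of the 8 were higher in Dll1+ cells of mice 1 to 4. In mouse 4 Acta2 went from 213.4 to 171.9 CPM and Mylk from 48.8 to 25.4. The summed level of the 8 markers was higher in Dll1+ than in Dll1- cells in 4 of 4 mice. It ran from 149.2 and 235.3 CPM in mouse 2 to 653.8 and 1486 in mouse 4. The part of basal cells in the collagen differences was not tested. The 6 Schwann cell markers were split in mCh mice, with 3 positive and 3 negative log2 fold changes and a median of -0.04. There 1 was called lower and 1 higher, Cdh19, which rose by 0.68 (SE 0.13, adjusted p = 0.0258). The adipocyte markers Adipoq, Plin1, Cidec, Lep and Adrb3 were at 0 to 0.628 CPM in every library, and the adipocyte list gave 1 tested gene, Plin4, which did not pass.

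Genes that process or bind collagen were also followed. Of the 30 genes of collagen biosynthesis and crosslinking tested, 2 fell in mCh mice, a share close to the 6.25% of all genes that fell there, with a median log2 fold change of -0.42. These were Adamts14, a procollagen N-proteinase, which fell by 1.28 (adjusted p = 0.022), and Crtap, a component of the prolyl 3-hydroxylase complex, which fell by 0.93 (adjusted p = 0.0414). Adamts14 also fell by 1.56 in GFP mice (adjusted p = 0.0185), a gap of 0.28 between the reporters (SE 0.33). Over the 4 mice 3 of the 30 fell, against 7.04% of all genes tested. Of the 9 collagen receptor and uptake genes tested, 4 fell in mCh mice, where the median was -0.98. They included Itga1, the collagen-binding integrin α1 chain, which fell by 1.73 (adjusted p = 0.0115), Ddr2, a receptor tyrosine kinase for fibrillar collagen, by 2.25 (adjusted p = 0.015), and Mrc2, an endocytic collagen receptor, by 1.35 (adjusted p = 0.0148).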

How the data were processed

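RNA was measured in 8 libraries of Lin- tumor cells, a Dll1+ and a Dll1- library from each of 4 mice. Transcripts of GENCODE M20 (GRCm38.p6) were quantified with salmon by the authors, and gene sums made with tximport were deposited as estimated counts, in whole numbers and not normalized. Whether tximport scaled them is not given in the sources used here, and salmon's strand setting is not either. Collagen genes were matched through GENCODE M21 (GRCm38), in which 53668 of 53697 genes were found. The members and lists were chosen with earlier results of these data known.

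Tests used edgeR 4.0.16 under R 4.3.3 (TMM, filterByExpr, robust quasi-likelihood F test, Benjamini-Hochberg adjustment over all genes tested, threshold 0.05). The model of Dll1 status and mouse follows the study. A fit with a Dll1 effect per reporter gave the effect in each and their difference, and 4 group means gave the comparisons of lines. Pairs came from the mouse named in the labels. Across genes, the deviations of paired libraries from their group mean had a correlation of -0.05 in GFP and 0.55 in mCh mice. Levels are TMM-normalized CPM, per kilobase of the union of exons where genes are compared, and within-mouse differences used log2(CPM + 0.5). A gene was named if it passed a test, if it was among the 8 highest per kilobase, or if it belonged to a fixed list of well known collagens, and the other lists are represented by their 3 lowest p in mCh mice. A few other members and markers are named with their levels, chosen after their values were seen. The tests were checked on simulated counts. DESeq2 1.42.0, RLE size factors, other filters, no mouse block, each reporter alone and each mouse left out were tried as alternatives. A result of the Schwann cell marker list is not reported here.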

Additional observations from a re-analysis of the deposited data

How the results depend on the processing

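Every collagen gene called kept its direction in every alternative tried. Over the 4 mice, 5 collagen genes were called, with 10 by DESeq2, 3 with no filter on low counts, and 1 to 6 with a mouse left out. In GFP mice 3 were called, with 5 by DESeq2, 5 with no filter, 6 with the reporter fitted alone, 0 with no replicate block, and 0 to 5 with a mouse left out. In mCh mice 17 were called, with 0 for the reporter fitted alone, 4 with no replicate block, and 11 to 22 with a mouse left out. The difference between the reporters had 0 calls, with 12 by DESeq2, 10 with no filter, 1 with at least 10 counts in every library, and 0 to 21 with a mouse left out. Between the lines 28 were called in Dll1- cells, with 0 to 28 where a mouse was left out, and 16 in Dll1+ cells, with 25 by DESeq2, 7 with no filter and 0 to 24 where a mouse was left out. The cause of these changes was not tested, except that fewer mice leave fewer residual degrees of freedom. With the mCh mice fitted alone, 0 of all genes were called. Reporters left with 1 mouse are assumed to vary like the other. Without the mouse as block, 5 collagen genes passed over the 4 mice, of which 1 rose and 4 fell. Per-kilobase levels moved by more than the spread between replicates for 16 of 43 genes when the longest transcript replaced the union of exons, and for 0 with plain library totals. With 2 mice per reporter, small changes of collagens under 1 CPM are not detectable.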
